A study of Homo sapiens with 3 samples.

Results

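The transcription factors of the plasma cell and MAF with its target ITGB7, a set of 10 genes taken by their symbols from the 43913 in the deposited tables (PRDM1, IRF4, XBP1, POU2AF1, MAF, IKZF1, IKZF3, PAX5, BCL6 and ITGB7), were followed in the established myeloma line MM.1S and in HS-5, an established bone marrow stromal line immortalised with viral oncogenes. Drop-seq, which counts the RNA molecules of single cells in droplets by unique molecular identifiers (UMIs), was run on 3 untreated samples: MM.1S in monoculture, HS-5 in monoculture, and both lines after 4 h of coculture. All 10 genes were present in the MM.1S monoculture and in the coculture, and 9 in the HS-5 monoculture, whose table has no entry for ITGB7. Each condition is 1 library, so differences lack a replicate check, nothing was tested for significance, and the 95% intervals cover counting error only.

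Plasma cells run on a small circuit of transcription factors. PRDM1 (Blimp-1) represses the programme of the B cell, IRF4 opens that of the plasma cell and keeps it alive, XBP1 builds the secretory apparatus, and POU2AF1 (OCA-B) is the coactivator of the octamer factors at immunoglobulin genes. PAX5 and BCL6 hold B cells in the earlier state and are shut off in plasma cells, while IKZF1 and IKZF3 (Ikaros and Aiolos) are the zinc finger factors that thalidomide analogues send to degradation through cereblon. MAF is the oncogene of a subset of myelomas in which a translocation brings it under an immunoglobulin enhancer, a subset to which the MM.1S line belongs, and ITGB7, the β7 integrin chain, is among its known targets.

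Barcodes with 200 or more detected genes entered the analysis, and those of the coculture were given to a line by 62 MM.1S and 164 HS-5 genes that differed at least 50-fold between the monocultures, the 10 genes left aside. This gave 3947 MM.1S cells in monoculture and 1644 in coculture, and 3732 and 2104 HS-5 cells, with 108 mixed coculture barcodes left out as doublets. Median depth was 2201 UMIs per MM.1S cell in monoculture and 669.5 in coculture, against 971.5 and 957 UMIs in HS-5. Of 10 MM.1S markers, 7 reached 10 UMIs per 1e+06 (counts per 1e+06 UMIs, CPM) in MM.1S cells of either culture, while CD79A (1 and 0 UMIs), CD27 (2 and 0 UMIs) and SLAMF7 (21 and 4 UMIs) did not. Of the same list, 1 gene did so in HS-5 monoculture (SDC1, higher there than in MM.1S monoculture) and 4 in HS-5 coculture cells. The list summed to 139 and 286 CPM there, against 54188 and 26653 CPM in MM.1S. Of 12 stromal markers, 10 reached that level in HS-5 cells, but TAGLN, with 2 and 0 UMIs, and COL3A1, at 4.88 and 4.84 CPM, did not. In MM.1S cells 3 and 4 of the stromal markers reached it, and the list summed to 3127 and 3850 CPM there and to 7498 and 9271 CPM in HS-5. None of 5 markers of T cells and macrophages reached it anywhere. MM.1S cells of the 2 libraries also differed in the share of mitochondrial UMIs, 6.82% in monoculture and 4.05% in coculture, and of ribosomal protein UMIs, 18.8% and 12%. With ribosomal protein and mitochondrial genes left out of the totals, the MM.1S log2 ratios of coculture over monoculture were 1.86 for PRDM1, 0.88 for POU2AF1, -0.81 for MAF and -0.84 for XBP1, which takes POU2AF1 under 2-fold. Of the barcode sequences, 39 occurred in both the MM.1S monoculture and the coculture, 76 in the HS-5 monoculture and the coculture, and 44 in both monocultures.

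The first question was which of these genes belonged to the myeloma line. In monoculture, 4 of the 8 genes that averaged 10 CPM or more over the lines, called the tested genes from here on, exceeded their HS-5 level at least 10-fold in MM.1S, against a background of 3.05% of 8734 genes, and none was 10-fold lower (7.98% of genes). MAF was the most unequal of them, at 1097 CPM in MM.1S (1077 to 1117, 11445 UMIs) and 3.58 CPM in HS-5 (2.24 to 5.42, 22 UMIs), 306-fold apart. IRF4 had 112 CPM in MM.1S and 1.63 CPM in HS-5, a 68.7-fold difference. POU2AF1 had 72.3 CPM against 1.30, which is 55.5-fold. ITGB7 gave 257 UMIs in MM.1S, 24.6 CPM, and none in HS-5, where 3 counts would be 0.488 CPM, and was at least 50.4-fold higher against that floor (40.7-fold at the lower end of the counting interval). So the myeloma oncogene, its integrin target and a pair of lymphoid regulators were close to absent from the stromal cells.

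The other tested genes had a base level in HS-5. XBP1, which all secreting cells use, had 419 CPM in MM.1S and 52.4 in HS-5, and IKZF3 had 67.0 and 7.16 CPM. IKZF1 had 20.6 CPM in MM.1S and 3.09 in HS-5. PRDM1 was the least unequal of the tested genes, at 36.8 CPM (33.2 to 40.7) in MM.1S and 15.0 CPM (12.1 to 18.4) in HS-5, only 2.46-fold apart in monoculture. The B cell regulators were under the minimum level. PAX5 had 4.70 CPM in MM.1S and 5.70 in HS-5, with overlapping intervals, and BCL6 had 1.34 CPM (14 UMIs) in MM.1S, lower than the 9.28 CPM (57 UMIs) in HS-5. Of those 14 BCL6 UMIs, 7 came from a single cell.

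The second question was how the levels differed in MM.1S cells after 4 h with stromal cells. Of the 8 tested genes, PRDM1 and POU2AF1 were at least 2-fold higher in coculture, in a library where 19% of 7836 genes were, and none was 2-fold lower, against 5.81% of genes. Counting 2 of 8 is therefore close to the background. The median of all genes lay at a log2 ratio of 0.24 (coculture over monoculture, pseudocount of 1 CPM), and the main ratios are also given relative to it.

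PRDM1 stood highest among them. It had 36.8 CPM in monoculture (384 UMIs) and 153 CPM in coculture (132 to 175 over 203 UMIs), a 4.15-fold difference. The log2 ratio was 2.02 (1.80 to 2.30), or 1.78 relative to the median, and 2.63% of all tested genes had one as high. With every cell thinned to 500 UMIs, 1.93% of 3947 monoculture cells (1.52 to 2.4%, exact Clopper-Pearson) and 8.59% of 1199 coculture cells (7.07 to 10.3%) held a PRDM1 UMI, against 0.797% and 0.666% in HS-5 cells. Before thinning, the shares were 8.79% of the deeper monoculture cells and 11.4% of the coculture cells. A PRDM1 UMI was thus found in more cells at equal depth, and no thinned cell of either culture held more than 2 UMIs. Poisson counts of the same means would give 1.93% and 8.69% of cells. The shares therefore follow the mean level, and do not tell more expressing cells from more transcript per cell.

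The PRDM1 difference was present at each depth at which both cultures had cells. Among cells of 500 to under 1000 UMIs, monoculture had 54.8 CPM (4 UMIs in 77 cells) and coculture 189 CPM (109 UMIs in 820 cells). In the class up to 1500 UMIs the levels were 45.0 and 129 CPM. Between 1500 and 3000 UMIs they were 36.1 and 131 CPM. Only in the deepest class, with 13 coculture cells, did the intervals overlap. RNA freed from stromal cells made up an estimated 1.57% of the MM.1S coculture counts and would account for 0.159 CPM of PRDM1. The 664 coculture cells without any UMI of an HS-5-specific gene had 177 CPM, and the 980 with one had 140 CPM, with overlapping intervals. The gene lies on chromosome 6 (106086320 to 106109939, plus strand, GRCh38 in GENCODE release 29) within the span of ATG5 on the opposite strand, and the strand setting of the counting is not given in the sources used here. ATG5 itself had 34.0 CPM in MM.1S monoculture and 57.9 in coculture.

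Promoter windows of PRDM1 are shown because it was the gene with the largest difference. They are the 250 bases before 2 annotated starts (RefSeq, GRCh38.p14, plus strand), 5′ to 3′. Capitals mark the matches, on either strand, to 6 motifs searched: TTCNNNGAA (STAT), GAAA repeated after any 2 bases (interferon response), GGGA followed after any 4 bases by CC (kappaB), TGCTGA (core of the MAF element), ATTTGCAT (octamer) and ACGTGG (unfolded protein response).
PRDM1, chr6:106086086-106086335: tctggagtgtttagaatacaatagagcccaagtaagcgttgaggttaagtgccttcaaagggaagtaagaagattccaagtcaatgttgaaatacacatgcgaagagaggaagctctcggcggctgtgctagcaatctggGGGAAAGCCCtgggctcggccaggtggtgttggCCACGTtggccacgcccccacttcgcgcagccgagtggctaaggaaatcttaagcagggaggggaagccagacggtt
PRDM1, chr6:106098691-106098940: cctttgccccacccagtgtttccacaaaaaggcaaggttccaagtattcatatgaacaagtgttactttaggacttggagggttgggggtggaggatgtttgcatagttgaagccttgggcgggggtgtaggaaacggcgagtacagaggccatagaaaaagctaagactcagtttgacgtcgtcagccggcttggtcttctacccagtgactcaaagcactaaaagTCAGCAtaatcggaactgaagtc
The upstream window holds a kappaB match starting 110 bases before the start and an ACGTGG match on the minus strand at 77 bases. Before the downstream start, TGCTGA is matched on the minus strand at 23 bases. Of 35116 such windows, 22.6% hold the kappaB letters, 8.37% ACGTGG and 14.0% TGCTGA. No STAT match (6.57% of windows), interferon response match (3.02%) or octamer (1.63%) was found in either window, and no match overlapped another.

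POU2AF1 (chromosome 11, 111352252 to 111455630) lay on the same side as PRDM1. It had 72.3 CPM in monoculture (67.2 to 77.6, 754 UMIs) and 150 CPM in coculture (130 to 173, from 200 UMIs). This is a log2 ratio of 1.05 (0.82 to 1.28) and 0.81 relative to the median, and 17.8% of genes had one as high. At 500 UMIs per cell the share with a UMI was 3.83% (3.25 to 4.47%) and 7.01% (5.63 to 8.60%), against 0.114% of HS-5 cells in monoculture and 0 of 1803 in coculture (upper limit 0.204%). By depth, coculture was higher without overlap of the intervals only from 1000 to 1500 UMIs (72.9 and 159 CPM), and from 1500 to 3000 UMIs the levels were 74.8 and 95 CPM. In the deepest class, with 3 coculture UMIs, the order turned, at 70.3 CPM in monoculture and 62.1 in coculture. Its 2-fold call rests on a narrow margin, since the ratio was under 1 in 5 of 13 other settings, down to 0.84 beside genes of matched transcript length.

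With cells of all depths summed, IRF4 and IKZF3 differed between the cultures by less than their counting error. IRF4 (chromosome 6, 391739 to 411447) had 112 CPM in monoculture (1167 UMIs) and 108 CPM in coculture (143 UMIs), a log2 ratio of -0.06 (-0.32 to 0.19), and was found at equal depth in 4.76% and 5.17% of cells. IKZF3 (chromosome 17, 39757715 to 39864188) had 67.0 CPM and 72.2 CPM, with a ratio of 0.11 (-0.22 to 0.42) and shares of 3.39% and 3.25%. Relative to the median of all genes these ratios were -0.30 and -0.13, and the IRF4 ratio took both signs over the other settings, from -0.57 to 0.33. The 0.33 was that of cells of 500 to 1500 UMIs and lies outside the interval given for IRF4. In monoculture IRF4 had 68.6 CPM in cells of 500 to under 1000 UMIs and 123 CPM in those of 3000 or more. IKZF1 (chromosome 7, 50304068 to 50405101) had only 20 UMIs in coculture, 15.0 CPM against 20.6 CPM, and its interval of -1.19 to 0.21 holds a 2-fold lower level as well as no difference.

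XBP1 was lower in coculture. Its level was 419 CPM in monoculture (406 to 431, 4369 UMIs) and 264 CPM in coculture (237 to 293, from 351 UMIs). This is a log2 ratio of -0.66 (-0.83 to -0.51), or -0.90 relative to the median. XBP1 was lower in coculture in each depth class with cells of both cultures. The intervals overlapped among cells of 500 to under 1000 UMIs (384 and 255 CPM) and in the deepest class (406 and 290 CPM). The share of cells with a UMI at equal depth was 19.3% (18.1 to 20.6%) in monoculture and 11.8% (10.1 to 13.8%) in coculture, against 2.48% and 2.33% of HS-5 cells. After thinning, no cell of either culture held more than 3 XBP1 UMIs, and before it 1 of the deeper monoculture cells held 44. Gene counts do not separate the spliced XBP1 message, which encodes the active factor, from the unspliced one.

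MAF was lower in coculture as well. It had 1097 CPM in monoculture and 705 CPM in coculture (661 to 752, from 938 UMIs). The log2 ratio was -0.64 (-0.73 to -0.54), or -0.88 relative to the median, and 12.6% of genes had one as low. At 500 UMIs per cell 41.7% of monoculture cells (40.2 to 43.3%) and 26.3% of coculture cells (23.8 to 28.9%) held a MAF UMI, against 0.0853% and 0.444% of HS-5 cells. It was lower in coculture in each depth class, at 707 against 1357 CPM among cells of 500 to under 1000 UMIs. Beside genes of matched transcript length the ratio was -1.12, past 2-fold. At 500 UMIs per cell its counts per cell had a variance of 1.16 times the mean in monoculture and 1.19 in coculture, above the equality of a Poisson count. Poisson counts of the same means would give 43.9% of monoculture cells, above the interval of the observed share. In coculture they would give 28.6%, within the interval. A single monoculture cell held 66 MAF UMIs before thinning.

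ITGB7 (chromosome 12, 53191318 to 53207307) had the lowest ratio of the 8 tested genes, at 24.6 CPM in monoculture (21.7 to 27.8) and 13.5 CPM in coculture (8.02 to 21.4, from 18 UMIs). Its log2 ratio was -0.82 (-1.64 to -0.17). Its shares at equal depth were 1.14% (0.833 to 1.52%) and 0.584% (0.235 to 1.20%), with overlapping intervals. It overlaps ZNF740 on the opposite strand, which had 13.9 CPM and 16.5 CPM. ITGB7 thus lay on the same side as MAF, on few counts, and passed 2-fold in 3 of 13 other settings.

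The windows of MAF and XBP1 are shown as those of the lower factors with the most UMIs. Both are the 250 bases before an annotated start on the minus strand (RefSeq, GRCh38.p14), written 5′ to 3′ along the gene, with capitals for the motif matches as above.
MAF, chr16:79600738-79600987: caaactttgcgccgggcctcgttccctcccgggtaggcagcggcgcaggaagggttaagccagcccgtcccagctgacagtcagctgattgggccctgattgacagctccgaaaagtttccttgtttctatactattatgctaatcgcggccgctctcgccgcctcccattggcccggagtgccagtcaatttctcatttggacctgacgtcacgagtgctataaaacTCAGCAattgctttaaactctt
XBP1, chr22:28800570-28800819: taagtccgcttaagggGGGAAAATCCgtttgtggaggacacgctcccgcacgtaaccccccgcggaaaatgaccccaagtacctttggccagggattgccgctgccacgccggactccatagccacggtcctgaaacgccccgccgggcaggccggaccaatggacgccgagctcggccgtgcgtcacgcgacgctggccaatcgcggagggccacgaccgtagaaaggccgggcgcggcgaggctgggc
MAF, whose gene lies on chromosome 16 (79585843 to 79600714), has the TGCTGA core on the opposite strand 22 bases before its start. XBP1 (chromosome 22, 28794555 to 28800597) has a kappaB match 234 bases before its start and no match to the letters ACGTGG in this window. Other forms of the unfolded protein response element were not searched, so the window cannot be said to lack one. POU2AF1 and IKZF3 are not among the 8 genes with a window.

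PAX5 and BCL6 stayed at trace levels in MM.1S cells. PAX5 (chromosome 9, 36833275 to 37034185) had 49 UMIs in monoculture and 11 in coculture, 4.70 and 8.27 CPM, with a ratio of 0.70 (-0.28 to 1.78). Its share at equal depth, 0.279% and 0.334% of cells, did not stand apart from the 0.313% (0.156 to 0.559%) of HS-5 monoculture cells. BCL6 (chromosome 3, 187721377 to 187745727) had 5 UMIs in 2 coculture cells, 4 of them in 1 cell, so its 3.76 CPM says little of the culture as a whole.

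In HS-5 cells, only PRDM1 and XBP1 were tested, and neither was 2-fold higher (1.2% of 8811 genes were) or 2-fold lower (1.83%). PRDM1 had 15.0 CPM in monoculture and 10.1 CPM in coculture (6.53 to 14.9, from 25 UMIs). Its log2 ratio there was -0.53 (-1.27 to 0.08), against 2.02 in MM.1S. Within the coculture PRDM1 was therefore 15.1-fold above its HS-5 level in MM.1S cells (9.96 to 23.9). There, 4 of 6 tested genes passed 10-fold (PRDM1, IRF4, POU2AF1 and MAF, with 2 HS-5 UMIs each for IRF4 and POU2AF1), against 2.62% of 8895 genes, and none was 10-fold lower (5.54%). XBP1 had 52.4 and 44.8 CPM in HS-5 cells and IKZF3 7.16 and 6.86 CPM.

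MAF in HS-5 cells went the other way from MM.1S, but near the level of free RNA. It had 22 UMIs in monoculture and 25 in coculture, 3.58 and 10.1 CPM, under the minimum level, with a ratio of 1.28 (0.61 to 2.39). RNA freed from MM.1S cells made up an estimated 0.721% of the counts and would account for 5.09 of the 10.1 CPM, and the ratio was 0.40 after its subtraction. HS-5 coculture cells with a UMI of an MM.1S-specific gene had 15.7 CPM of MAF (8.78 to 25.9, 662 cells) and those without had 6.57 CPM (3.15 to 12.1, 1442 cells).

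Single cells were also read for factors found together. Of the 7 factors PRDM1, IRF4, XBP1, POU2AF1, MAF, IKZF1 and IKZF3, 1 or more had a UMI, at the equal depth, in all but 40.2% of monoculture and 51.7% of coculture MM.1S cells. None of the 42 ordered pairs of factors in either culture had separate intervals for the cells with and without the other. In monoculture, 0 of 76 PRDM1-positive cells had an IRF4 UMI, which allows a share of up to 4.74% (exact upper limit). Of 3871 cells without PRDM1, 4.86% had one, and the intervals overlapped. In coculture, 5 of 103 PRDM1-positive cells had an IRF4 UMI, against 57 of 1096 cells without PRDM1. The 0 in monoculture is therefore not read as exclusion of IRF4 from PRDM1-positive cells. Cells with 2 of the factors numbered 496 in monoculture and 129 in coculture, cells with 3 numbered 66 and 21, and cells with 4 numbered 3 and 1.

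Genes known to be driven by MAF did not share one direction. Of 7 listed, all tested, 3 were at least 2-fold higher in MM.1S cells in coculture and 2 were lower, with a median of 0.62 against 0.24 for all genes, of which 19% were higher and 5.81% lower. These shares of all genes are the background for each list that follows. CCND2, the cyclin D through which MAF drives proliferation, had 825 CPM in monoculture (8612 UMIs) and 1804 CPM in coculture (2399 UMIs), a ratio of 1.13. CCR1, a chemokine receptor, had 288 and 793 CPM (1.46). NUAK1, a kinase, had 15.0 and 48.1 CPM (1.61). CX3CR1, the fractalkine receptor, was at 395 and 195 CPM (-1.01), and DEPTOR, an inhibitor of mTOR, at 97.1 and 18.8 CPM (-2.31). The lower MAF level in coculture stood beside higher levels of CCND2 and CCR1 and lower ones of DEPTOR and CX3CR1. In its own family of MAF and BACH factors, 4 of 9 genes were tested, and the small partner MAFG (22.9 and 92.5 CPM, 1.97) and the repressor BACH1 (23.6 and 59.4 CPM, 1.30) were higher.

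The pathway around IKZF1 and IKZF3 held 7 tested genes of 10, of which none was 2-fold higher and MYC was lower, at 788 CPM in monoculture and 377 CPM in coculture (-1.06), a count too small to set apart from the 19% and 5.81% of all genes. CRBN, which encodes cereblon, had 29.9 and 26.3 CPM (-0.18, interval -0.73 to 0.32). The 16 partners of the factors gave 13 tested genes, 4 of them higher (19% of all genes were): the E protein TCF3 (25.1 and 90.2 CPM, 1.80), the BCL6 corepressor BCOR (1.45), the demethylase KDM1A (1.05) and BATF, which binds with IRF4 (1.04). Their median was 0.75. No partner gene among the 13 was 2-fold lower.

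Among 18 plasma cell genes, PRDM1 and POU2AF1 included, 17 were tested, 4 were higher and 1 lower, counts near the 19% and 5.81% of all genes, with a median of -0.43, under that of all genes. The higher ones beside them were SDC1 (syndecan-1, CD138), at 38.1 and 125 CPM (1.68), and ELL2, the elongation factor for secretory immunoglobulin message, at 40.1 and 117 CPM (1.53). FKBP11, a chaperone of the secretory pathway, was the lower one, at 200 and 44.4 CPM (-2.14). SDC1 was also present in HS-5 cells, at 135 and 126 CPM, above its MM.1S level in monoculture and near it in coculture. XBP1 targets gave 20 tested genes with a median of 0.15, of which SDF2L1 was higher (1.04) and DNAJB9 lower (-1.11), both of the endoplasmic reticulum chaperone system. Of 25 B cell genes silenced in plasma cells, only 3 were tested. BLNK had 36.2 and 33.8 CPM, BCL11A 32.6 and 30.8 CPM, and ID3, an inhibitor of E proteins, 24.7 CPM in monoculture and 1 UMI in coculture (0.752 CPM, interval 0.0190 to 4.19). The ID3 ratio of -3.88 rests on that UMI, and its interval runs from -10.3 to -2.55.

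The integrins that pair with β7 or bind beside it gave 3 tested genes of 9, none past 2-fold. ITGA4, the α4 partner, was under the minimum level, with 38 UMIs in monoculture and 15 in coculture. Interleukin-6, a cytokine that stromal cells secrete and that maintains plasma cells, signals through STAT3, and the list of its response genes gave 11 tested genes of 12. The list was chosen with earlier results of these data known, so its count is a description, and signalling was not tested. Of the 11 tested genes, 8 were higher and 2 lower, against 19% and 5.81% of all genes, with a median of 2.32. SOCS3 (1.05 and 25.6 CPM, 3.69), IRF1 (9.20 and 122 CPM, 3.59), BCL3 (1.05 and 22.6 CPM, 3.52) and IL6R (28.4 and 214 CPM, 2.87) led it, and PIM1 (-1.15) and MYC were lower. Coculture cells with a PRDM1 UMI at equal depth had 1498 CPM of this list in sum (1182 to 1873, 103 cells). Those without had 1564 CPM (1461 to 1672, 1096 cells), with overlapping intervals. Because PRDM1 detection at equal depth followed the mean level, cells without a UMI cannot be taken as negative. The overlap therefore does not tell whether PRDM1 and this list go together in single cells. In HS-5 cells the medians of the 9 lists ran from -0.62 for MAF targets to 0.75 for the integrins.

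Over the 4 line and culture groups, the genes closest to PRDM1 in pattern among 8863 (smallest distance between centred log2 levels) were ANKRD12 (0.37), NLRP2 (0.40) and JAG2 (0.44). ANKRD12 had 489 and 1576 CPM in MM.1S monoculture and coculture and 209 and 161 CPM in HS-5. The genes closest to MAF were TSTD1 (0.16), VAMP8 (0.26) and LINC01480 (0.36). TSTD1 had 327 and 236 CPM in MM.1S and 0.326 and 2.42 CPM in HS-5. With 4 points per gene, this is a description of these libraries.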

How the data were processed

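The authors deposited whole-number UMI counts per gene and barcode for 3 Drop-seq libraries, without normalization (MM.1S monoculture 10433182 UMIs, HS-5 monoculture 6143448, coculture 3981392). The submitters' processing notes name Cell Ranger 3.0.2, UMI-tools 1.0.0, STAR 2.5.3a, Subread, featureCounts 1.6.4, SAMtools 1.9 and GRCh38 (hg38), without roles. The annotation release, strand setting and choice of barcodes are not given in the sources used here.

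Barcodes with 200 or more genes were used. Line-specific genes had at least 50 CPM in their own monoculture and a 50-fold difference. In the coculture, cells in which HS-5 genes took under 0.2 of the line-specific UMIs were MM.1S, those over 0.8 HS-5, and the rest doublets. UMIs were summed per line and culture and scaled to CPM, and 3 counts were worth 0.288 CPM in MM.1S monoculture, 2.26 in MM.1S coculture, 0.488 in HS-5 monoculture and 1.21 in HS-5 coculture. Genes averaging 10 CPM or more were tested against a 2-fold (culture) or 10-fold (line) limit, so "tested" means compared with that limit. Thinning left out cells under 500 UMIs (445 of the MM.1S coculture). Intervals were exact Poisson, conditional binomial for ratios and Clopper-Pearson for shares.

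All 10 genes were named, with list genes past 2-fold (at most 4 per list and direction) and the 3 nearest patterns for PRDM1 and MAF. The genes and lists were chosen with earlier results of these data known. The steps were tested on simulated data. Analyses used Python 3.11.15, numpy 2.4.6, scipy 1.17.1 and pandas 2.3.3. Matched length compared each gene with the 500 genes nearest in transcript length (GENCODE 29).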

Additional observations from a re-analysis of the deposited data

Results flagged for a closer look

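MAF had a log2 ratio of coculture over monoculture of -0.64 in MM.1S cells and 1.28 in HS-5 cells, so the lines lay on opposite sides of 0, with intervals that did not meet. The difference between the lines was not tested, since each culture is 1 library. In HS-5 cells MAF was under the minimum level, and subtraction of free MM.1S RNA left 5.04 CPM and a ratio of 0.40. That level lies within the HS-5 monoculture interval of 2.24 to 5.42 CPM, so the subtracted value cannot be told from no difference.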

How the results depend on the processing

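The settings changed were the minimum of genes per cell, the pseudocount, the scaling, the depth and weight of cells, the minimum level, the rules for a cell's line and for doublets, free RNA and transcript length. Of the single-gene values, 300 moved by less than their interval, 67 moved further and 0 called values changed sign. The count of genes at least 2-fold higher in MM.1S coculture, 2 as reported, was 1 (PRDM1 alone) with a minimum of 500 genes per cell, with a pseudocount of 10, with median-of-ratios scaling, with a total free of ribosomal protein and mitochondrial genes, and relative to genes of matched transcript length. The count of genes at least 2-fold lower, 0 as reported, was 1 (ITGB7) with a minimum of 500 genes per cell and in cells of 500 to 1500 UMIs, and 2 (MAF and ITGB7) relative to matched length. The count of genes 10-fold above HS-5 in the MM.1S monoculture, 4 as reported, was 2 (IRF4 and MAF) with a pseudocount of 10 and with a minimum of 50 CPM, since ITGB7 and POU2AF1 then fall under the limit or the level. It was 5, with IKZF3 added, with median-of-ratios scaling, with a total free of ribosomal protein and mitochondrial genes, and in cells of 500 to 1500 UMIs. Relative to matched length it was 6, with IKZF1 and IKZF3 added. Within the coculture it stayed within 1.5 times of 4. Over 13 settings the PRDM1 ratio in MM.1S ran from 1.53 (matched length) to 2.05, MAF from -1.12 to -0.61, XBP1 from -0.84 to -0.58 and IRF4 from -0.57 to 0.33, with both signs. PRDM1 in HS-5 cells ran from -0.67 to 0.15. The cause of these shifts was not tested. No paired analysis was possible because each condition is 1 library and the labels give no replicate numbers. Depth limits IKZF1, PAX5, BCL6 and ITGB7 most, with 5 to 20 UMIs in MM.1S coculture.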
